A study of Mus musculus with 4 samples.

Results

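The genes described here encode 8 subunits of Polycomb repressive complex 1 (PRC1): the chromodomain proteins Cbx2, Cbx6, Cbx7 and Cbx8, the RING-type ubiquitin ligases Ring1 and Rnf2 (also called Ring1B), and the paired adaptors Rybp and Yaf2. They were chosen by symbol and role, with earlier results of these data known, and all 8 were among the 46946 genes of the deposited table. Polyadenylated RNA was measured in 4 untreated mouse tumours, which form a single group labelled PDGFB K27M. Per the sample labels the tumours derived from neural stem cells carrying PDGF and the K27M mutation of histone H3, whereas the series text speaks of injected DIPG (diffuse intrinsic pontine glioma) cells with mutant H3.3. All 4 tumours share PDGF and K27M, there is no tumour without the mutation and no normal brain, and the sources used here do not give host strain, age or the promoter driving PDGF. The libraries carry the names T14, T10, T8 and TUN from the table, which match no sample title one to one, and whether they come from separate animals is not stated, so the spread below is that between these samples and may be in part technical.

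PRC1 places ubiquitin on histone H2A and helps keep developmental genes silent. Every form of the complex is built on Ring1 or Rnf2 together with a Pcgf protein. In canonical PRC1 a Cbx protein reads the trimethyl mark that PRC2 puts on lysine 27 of histone H3, the mark that K27M mutant histone lowers, and Polyhomeotic proteins compact the chromatin. In variant PRC1 the Cbx position is taken by Rybp or Yaf2, and recruitment does not require the PRC2 mark. In embryonic stem cells Cbx7 is the main Cbx subunit, and Cbx2 and Cbx8 are known to replace it as cells differentiate.

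The Cbx readers are paralogs with a shared chromodomain at the amino end, so the first question is whether short reads can be assigned to one of them. The coding sequence from the start codon through most of the chromodomain is printed here for Cbx6, Cbx7 and Cbx8, read from GENCODE vM21 transcripts (build GRCm38, equivalent to the mm10 of the deposited table), with capitals at bases that are identical in all 3 genes.
Cbx6: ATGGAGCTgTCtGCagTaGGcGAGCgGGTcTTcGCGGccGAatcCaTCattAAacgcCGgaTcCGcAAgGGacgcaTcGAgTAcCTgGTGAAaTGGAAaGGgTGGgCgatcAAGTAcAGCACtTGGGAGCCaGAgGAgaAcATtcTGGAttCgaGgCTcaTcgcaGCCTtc
Cbx7: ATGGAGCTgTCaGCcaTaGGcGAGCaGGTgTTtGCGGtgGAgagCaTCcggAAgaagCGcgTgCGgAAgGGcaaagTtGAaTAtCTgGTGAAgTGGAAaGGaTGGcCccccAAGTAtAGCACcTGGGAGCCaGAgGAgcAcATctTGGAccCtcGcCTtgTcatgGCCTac
Cbx8: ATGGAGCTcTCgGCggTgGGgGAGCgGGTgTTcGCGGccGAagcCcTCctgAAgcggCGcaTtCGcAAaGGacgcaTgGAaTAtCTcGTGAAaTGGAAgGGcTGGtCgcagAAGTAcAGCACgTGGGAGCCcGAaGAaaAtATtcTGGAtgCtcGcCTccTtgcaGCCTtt
Of 171 aligned bases, 105 (61.4%) were identical in all 3 genes. Cbx6 and Cbx8 were the closest pair, with 78.4% identity in this stretch, and Cbx7 and Cbx8 the most distant, with 68.4%. Over the longest coding transcripts, the longest run of identical bases was 12 to 16 bases between any pair of the 4 Cbx members, 14 between Ring1 and Rnf2 and 23 between Rybp and Yaf2. No window of 50 bases occurred in more than 1 of the 8 genes, so reads of that length or longer without mismatches separate the paralogs. The read length is not given in the sources used here. Windows shared with genes outside the group made up 8.93% of those of Rybp, all with its processed copy Rybp-ps, 5.12% of those of Cbx6, 2.59% of those of Rnf2, 0.760% of those of Cbx7 and none of the others. How the authors treated reads with several matches is not stated, so some reads of Rybp may be missing. Rybp-ps itself held 1 to 3 counts per library.

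The 4 libraries held 21664889 to 24369339 counts in genes. Levels are given as CPM (counts scaled to library size, with TMM factors) where 1 gene is compared between tumours, and as RPKM (CPM per kilobase of merged exons) where genes are compared with each other. All 8 genes reached 1 CPM in all 4 tumours, as did 28.2% of the genes of the table. Markers of the labelled tissue were present: all 9 oligodendrocyte precursor genes listed for the check and all 6 neural stem cell genes were detected in every tumour, with summed levels of 9299 to 15062 CPM and 1973 to 4664 CPM. The tumours differed in other cells. Summed over 12 neuron genes the level was 4915 CPM (T14), 4426 (T10), 1305 (T8) and 1207 (TUN), and 8 astrocyte and 8 mature oligodendrocyte genes were likewise highest in T14 and T10. Summed over 10 mitosis genes it was 772, 767, 1415 and 1845 CPM in the same order. In bulk RNA, fewer cells of a type and less RNA per cell cannot be told apart.

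The levels per length spanned a wide range, led by Yaf2 (49.5 ± 3.57 RPKM, SD, n = 4), Cbx6 (36.4 ± 10.5 RPKM) and Rnf2 (21.2 ± 4.59 RPKM). Ring1 followed at 6.45 ± 0.650 RPKM, then Cbx8 (3.93 ± 0.422 RPKM), Cbx7 (3.44 ± 2.78 RPKM), Rybp (2.94 ± 0.230 RPKM) and Cbx2 (2.61 ± 0.650 RPKM). Between Rnf2 and Ring1, and between Ring1 and Cbx8, the ranges over the tumours did not overlap and the order held in 4 of 4 tumours. Yaf2 and Cbx6, and Cbx6 and Rnf2, overlapped in range, and each pair kept its order in 3 of 4 tumours. Among Cbx8, Cbx7, Rybp and Cbx2 each neighbouring pair overlapped in range and kept its order in 2 of 4 tumours. The place of Cbx7 rests on T14, without which its mean was 2.26 RPKM, below those of Rybp and Cbx2. It also rests on the deposited gene lengths, which all levels in this paragraph use. With lengths of the longest coding transcripts, Cbx7 took on average 11.0% of the summed RPKM of the 4 Cbx members. Cbx8 then took 8.01% and Cbx2 6.27%. Among the 13245 detected genes, 92.2% had a lower mean RPKM than Yaf2, 88.1% than Cbx6 and 77.3% than Rnf2, against 41.6% for Ring1 and 19.1% to 27.9% for the other 4 members.

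**Figure D1:**
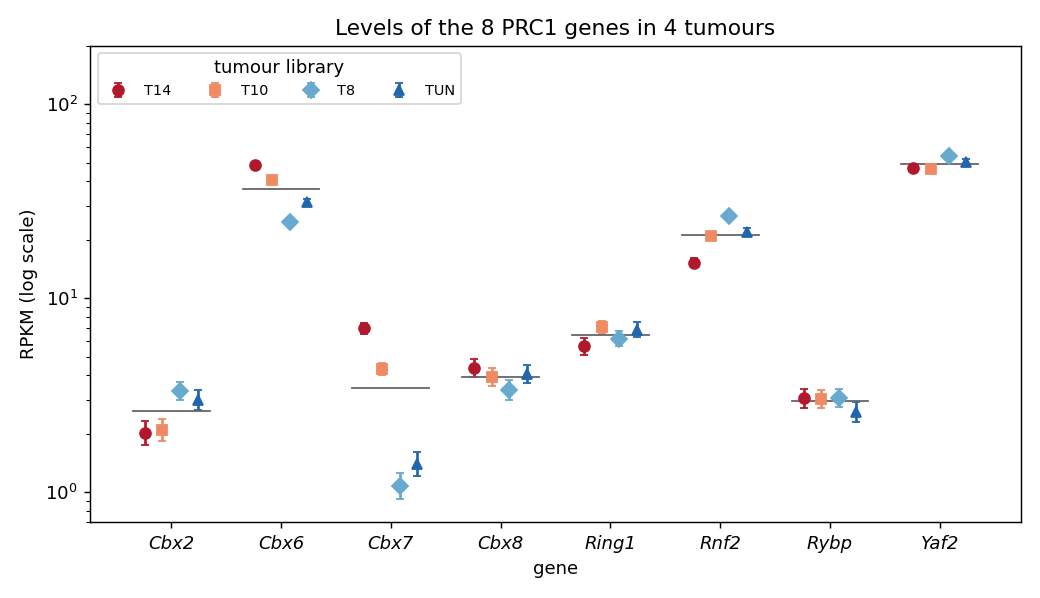
RPKM on a log scale for each of the 8 genes, with 1 point per tumour library, 95% exact Poisson counting intervals as error bars and the mean of the 4 tumours as a grey line. Yaf2, Cbx6 and Rnf2 lie above Ring1, and the points of Cbx7 spread from 1.08 to 6.99 RPKM.

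Cbx7, a canonical reader, was the member that differed most between tumours. It stood at 45.3 CPM (T14), 28.0 (T10), 7.0 (T8) and 9.02 (TUN), from 1021, 688, 167 and 202 counts. T14 and T10 were high and T8 and TUN low, with a 6.48-fold difference between T14 and T8. The 95% exact Poisson intervals, which cover counting error only, were separate for 5 of the 6 pairs of libraries. Cbx7 was the 1 member of 8 more variable than genes of like abundance in the edgeR goodness of fit (Benjamini-Hochberg adjusted p = 0.0365 over all genes tested), against a background of 4.34% of 14266 genes. It was also the 1 member with an unadjusted p under 0.05 in that fit, against 8.38% of genes, and 0 of the 8 were dispersion outliers in DESeq2, against 0.547%. The call was lost when any of T14, T10, T8 or TUN was left out (adjusted p of 0.0934 to 0.452 in the same fit). It was also lost without the filter on low counts (adjusted p = 0.0994). Those fits use fewer libraries or more genes, and the cause of the lost calls was not tested. A spread as large as that of Cbx7 was found in 4.98% of the genes tested. The neuron markers moved with it: 11 of 12 had T14 and T10 as their highest libraries, as had 7 of 8 astrocyte and 7 of 8 mature oligodendrocyte genes, with Snap25, a synaptic vesicle fusion gene, at 1580 CPM (T14), 1329 (T10), 124 (T8) and 63.8 (TUN). Map2, a microtubule gene and the most abundant of the 12, differed less, at 777 CPM (T14), 1066 (T10), 758 (T8) and 742 (TUN). All 12 neuron markers were detected in every tumour and none was at 0. Of 8 cerebellar neuron genes, 7 had the same 2 highest libraries, but their sum set T14 apart, at 3652 CPM (T14), 498 (T10), 265 (T8) and 189 (TUN), and 4 of the 8 were detected in every tumour. The part of these cells in the level of Cbx7 was not tested.

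Cbx6, a less studied reader and the most abundant Cbx member, stood at 306 CPM (T14), 257 (T10), 155 (T8) and 198 (TUN). Its 2 highest libraries were the same as those of Cbx7, and the counting intervals of all 6 pairs of libraries were separate. The difference between T14 and T8 was 1.98-fold, a spread reached by 29.8% of the genes tested, and the goodness of fit gave no call (edgeR, adjusted p = 1). The order T14 and T10 above T8 and TUN, found in 2 of the 8 members, was that of 33.0% of all genes tested.

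Cbx2, a reader that also compacts chromatin, had the opposite order. It stood at 8.61 CPM (T14), 8.96 (T10), 14.2 (T8) and 12.8 (TUN). T8 and TUN were the high libraries, and the 2 low ones did not differ beyond counting error. The 1.64-fold spread was not called (edgeR goodness of fit, adjusted p = 1). Mitosis markers (10 of 10), oligodendrocyte precursor markers (8 of 9) and neural stem cell markers (5 of 6) had the same 2 high libraries, and their part in the level of Cbx2 was not tested. Cbx8, the remaining reader, varied least of the 4, at 16.1 CPM (T14), 14.4 (T10), 12.4 (T8) and 14.9 (TUN). The intervals of T14 and T8 were separate and those of the other 5 pairs overlapped.

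**Figure D2:**
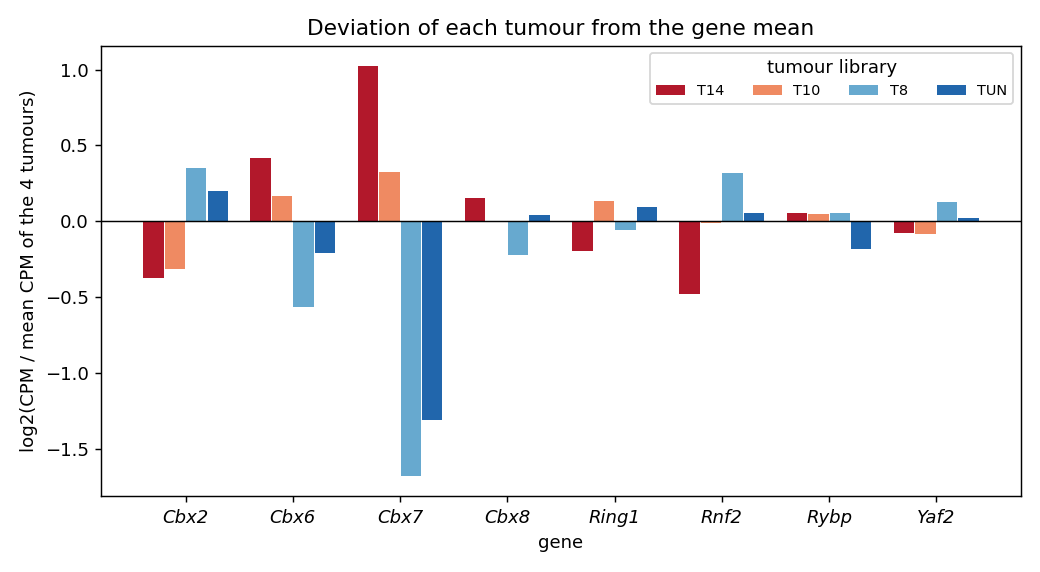
Bars give the log2 ratio of each tumour's CPM to the mean of the 4 tumours for each gene. Cbx7 and Cbx6 have bars above 0 in T14 and T10 and below 0 in T8 and TUN, and Cbx2 has the reverse, with bars for Rybp and Yaf2 close to 0.

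Cbx7 and Cbx2 ran opposite ways, and the paralog with the higher level per length changed between tumours. From lowest to highest library, Cbx7 spanned 2.70 log2 units and Cbx2 0.72. The log2 ratio of Cbx7 to Cbx2, on the scale of log2(RPKM + 0.1), was 1.74 (T14), 1.0 (T10), -1.54 (T8) and -1.06 (TUN), a span of 3.28 log2 units. Cbx7 exceeded Cbx2 in T14 and T10 and lay below it in T8 and TUN, so the mean of 0.04 ± 1.58 (SD, n = 4) describes no tumour. The ratio of Cbx7 to Cbx8 also changed sign, at 0.66, 0.14, -1.56 and -1.48 in the same order. The sign of its mean depends on the gene length used, while the sign in each tumour does not. The deposited length of Cbx7 is 6487 bases and its longest coding transcript measures 3388 bases. With transcript lengths the mean of this ratio was 0.31 in place of -0.56, and that of Cbx7 to Cbx2 was 0.79 in place of 0.04. Cbx2 lay below Cbx8 by 0.59 ± 0.47 log2 units on average. In T8 the ratio was -0.02 with the deposited lengths but 0.10 with transcript lengths and 0.19 in CPM, so the order there turned, while it was below 0 in the other 3 tumours on each of these scales.

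Cbx6 exceeded each of the other Cbx members in every tumour. The log2 ratio of Cbx6 to Cbx8 was 3.44 (T14), 3.35 (T10), 2.83 (T8) and 2.92 (TUN), a mean of 3.14 ± 0.31, or 8.80-fold. Against Cbx2 the mean was 3.73 ± 0.77, and Cbx7 lay 3.70 ± 0.83 log2 units below Cbx6. A total of 8 ratios were tested with the two-sided exact sign-flip test, and with 4 tumours its smallest p is 0.125, so none can pass 0.05. The ratios with the same sign in 4 of 4 tumours reached that p (0.167 adjusted over the 8), while Cbx7 to Cbx8 gave an exact sign-flip p of 0.5 and Cbx7 to Cbx2 of 1.

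**Figure D3:**
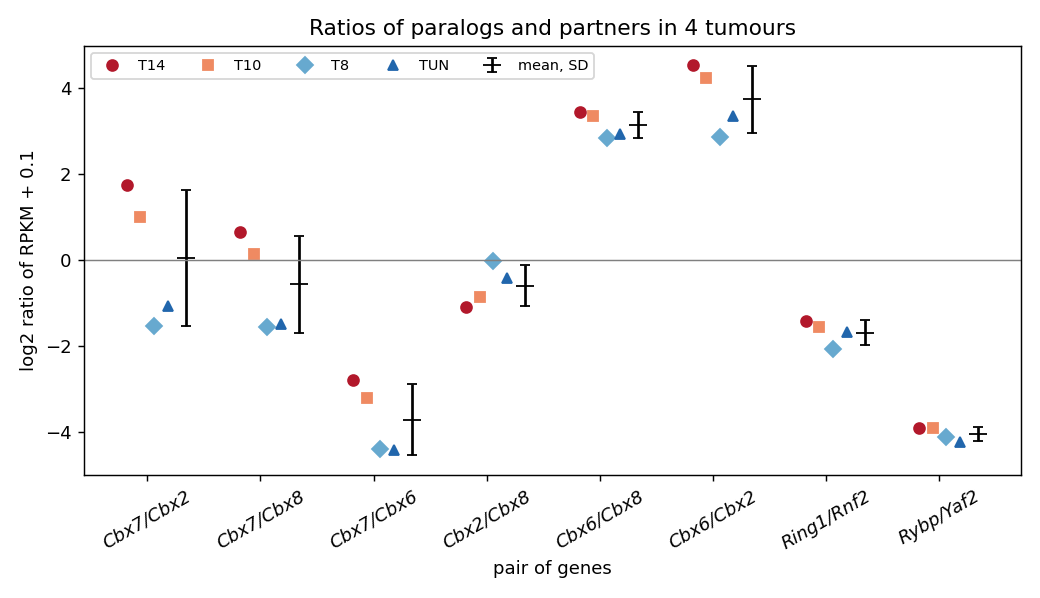
Points give the log2 ratio of RPKM + 0.1 for 8 pairs of genes in each tumour, with the mean and SD in black. Cbx7/Cbx2 and Cbx7/Cbx8 cross 0 between tumours, and Rybp/Yaf2 stays between -4.23 and -3.89.

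Read as shares of the summed RPKM of the 4 Cbx members, Cbx6 made up 78.4% (T14), 79.8% (T10), 76.0% (T8) and 78.8% (TUN). The shares of the other readers differed between tumours. Cbx7 made up 11.3% (T14), 8.44% (T10), 3.34% (T8) and 3.49% (TUN). Cbx2 made up 3.26%, 4.11%, 10.3% and 7.52% in the same order, and Cbx8 7.06%, 7.64%, 10.4% and 10.2%. The sum itself was 62.0 RPKM (T14), 51.2 (T10), 32.3 (T8) and 39.9 (TUN), so a share can rise without a rise in level. Cbx8 had its largest share in T8, where its own level was lowest (3.36 RPKM, against 4.37 in T14). These are shares of RNA and give no share of protein or of assembled complexes.

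**Figure D4:**
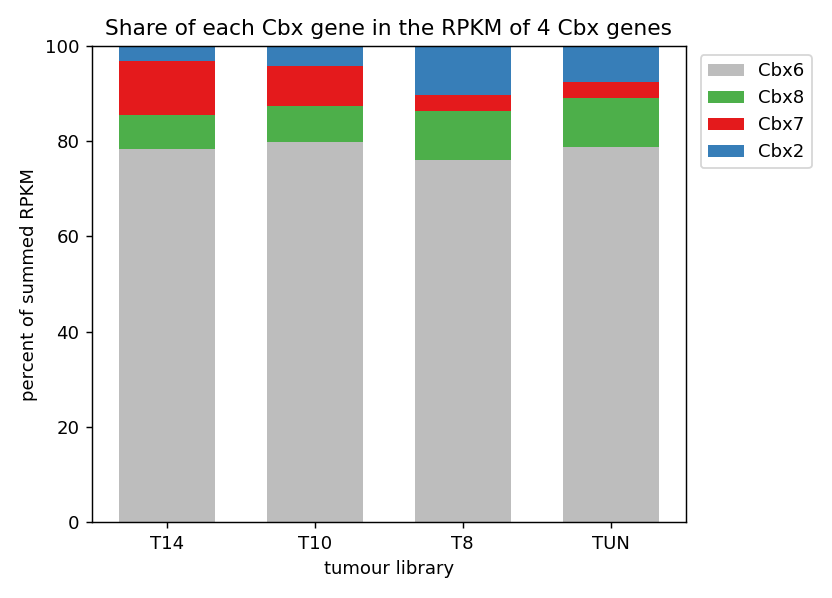
Stacked bars give the percent of the summed RPKM of Cbx2, Cbx6, Cbx7 and Cbx8 that each gene took in each tumour. Cbx6 takes 76.0% to 79.8% everywhere, and the red part (Cbx7) is larger in T14 and T10 while the blue part (Cbx2) is larger in T8 and TUN.

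The catalytic subunits differed from each other in level. Rnf2, the main H2A ubiquitin ligase of embryonic stem cells, stood at 62.8 CPM (T14), 86.8 (T10), 109 (T8) and 90.9 (TUN). T14 was the lowest and T8 the highest, 1.73-fold apart, and the intervals of 5 of the 6 pairs of libraries were separate. Ring1, its paralog, stood at 18.3 CPM (T14), 22.9 (T10), 20.1 (T8) and 22.3 (TUN), a 1.25-fold spread. Neither was called by the edgeR goodness of fit (adjusted p = 1 for both). Ring1 lay below Rnf2 in 4 of 4 tumours, by 1.68 ± 0.28 log2 units, or 3.20-fold, with the value furthest from 0 in T8 (-2.07). Ring1 made up 27.1% of the summed RPKM of both ligase genes (T14), 25.1% (T10), 19% (T8) and 23.8% (TUN). The sum was 20.9 RPKM (T14), 28.1 (T10), 32.6 (T8) and 28.9 (TUN), so the ligase sum was lowest where the Cbx sum was highest.

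The adaptors of variant PRC1 differed widely in level per length and had the smallest spread between tumours of the 8 members. Yaf2 stood at 87.7 CPM (T14), 87.3 (T10), 101 (T8) and 94.2 (TUN), and Rybp at 14.5, 14.4, 14.5 and 12.3 CPM. For Rybp the counting intervals of all 6 pairs of libraries overlapped. For Yaf2 those of T8 were separate from those of T14 and T10. Rybp lay below Yaf2 in 4 of 4 tumours, by 4.03 ± 0.16 log2 units, or 16.3-fold, and Yaf2 made up 93.9% to 95.1% of the summed RPKM of the pair. In CPM, without division by length, this share was 86.9% on average and the log2 ratio -2.73. The sum of both was 49.9 RPKM (T14), 49.6 (T10), 57.2 (T8) and 52.9 (TUN), a 1.15-fold span against 1.92-fold for the Cbx sum.

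Over the 8 members the median ratio of highest to lowest library was 1.47, against 1.57 over all genes tested. Of the 8, 1 exceeded a 2-fold spread (Cbx7), against 29.1% of the genes tested. T8 and TUN were the 2 highest libraries for 3 members (Cbx2, Rnf2 and Yaf2), an order shown by 32.5% of the genes tested. The goodness of fit compares each gene with the spread that is usual among these 4 libraries, so the absence of a call for 7 members does not show that they were stable.

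The Cbx members lie as paired paralogs on chromosomes 11 and 15. In mm10, Cbx2 (ENSMUSG00000025577.7, chromosome 11, 119022962 to 119031270, plus strand) and Cbx8 (ENSMUSG00000025578.9, chromosome 11, 119036305 to 119040969, minus strand) lie 5035 bases apart and point toward each other. Cbx2 and Cbx8 nevertheless had different orders between tumours, as given above. The nearest gene on the other side of Cbx2 with a mean CPM of 1 or more, Rbfox3, which encodes the neuronal antigen NeuN, was highest in T14 and T10 and passed the edgeR goodness of fit (adjusted p = 4.08e-13).

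Cbx6 (ENSMUSG00000089715.11, chromosome 15, 79823896 to 79834688, minus strand) and Cbx7 (ENSMUSG00000053411.16, chromosome 15, 79915807 to 79971119, minus strand) lie 81119 bases apart. The next expressed gene beyond Cbx7, 24781 bases away on the same strand, is Pdgfb, the mouse gene for the labelled growth factor. Pdgfb stood at 1499 CPM (T14), 922 (T10), 1330 (T8) and 2461 (TUN), an order not shared by Cbx7 or Cbx6, and its counts may contain an introduced sequence. On the other side of Cbx6, Nptxr, a neuronal pentraxin receptor gene, stood at 104, 73.4, 27 and 50 CPM in the order T14, T10, T8 and TUN. Between them, Apobec3 stood at 6.92, 5.94, 8.63 and 14.3 CPM, so genes of this stretch did not share 1 order.

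Reads of overlapping genes cannot be told apart in places, whether on the same strand or, since the library kit does not mark strand, on opposite strands. The exons of Cbx6 share 563 bases (8.95% of its length) with Npcd, an annotated gene on the same strand, which held 0 counts in all 4 libraries. How reads in shared exons were counted is not stated, so this 0 sets no upper limit on Npcd. If such reads were left out, the level per length of Cbx6 is too low. Those of Rnf2 share 158 bases with Trmt1l on the opposite strand (22.6 to 33.8 CPM), and those of Cbx7 share 100 bases (1.54%) with Apobec3 on the opposite strand. Cbx2, Cbx8, Ring1, Rybp and Yaf2 shared no exon base with another gene of the table. Ring1 (ENSMUSG00000024325.8) lies on chromosome 17 from 34020792 to 34024680, Rnf2 (ENSMUSG00000026484.13) on chromosome 1 from 151458004 to 151500955, Rybp (ENSMUSG00000072872.3) on chromosome 6 from 100228565 to 100287485 and Yaf2 (ENSMUSG00000022634.9) on chromosome 15 from 93284278 to 93336935, all on the minus strand. Their nearest genes at a mean CPM of 1 or more were H2-K1 and Slc39a7 (Ring1), Swt1 and Fam129a (Rnf2), Tpt1-ps3 and Shq1 (Rybp) and Gxylt1 and Zcrb1 (Yaf2), and each of these had an adjusted p of 1 in the edgeR goodness of fit. Rybp was the most isolated, with 350231 and 280771 bases to those genes.

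The genes most like Cbx7 across the 4 tumours, by the root mean square difference of centred log2 CPM among 12024 other genes at mean CPM 5 or more, were Ogfrl1 (0.033 log2 units), Ypel4 (0.048) and Chst8 (0.064). Ogfrl1 stood at 156 CPM (T14), 90.8 (T10), 23.9 (T8) and 30.1 (TUN). In all, 119 genes lay within 0.3 log2 units of the Cbx7 profile. With 4 points such likeness is a description only.

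Of 32 other genes of PRC1 and its variants, all were detected and 1 passed the edgeR goodness of fit, against 4.34% of all genes tested. This was Scml4, a gene of the Scm-like family (adjusted p = 0.0297), at 34.4 CPM (T14), 33.2 (T10), 142 (T8) and 98.0 (TUN), thus high where Cbx7 was low. Mitosis, oligodendrocyte precursor and neural stem cell markers were also high in T8 and TUN, and their part in the level of Scml4 was not tested. The call of Scml4 was lost without T14, T10 or T8 in turn. The most abundant per length was Skp1a (144 ± 7.80 RPKM), a subunit of the Kdm2b form of variant PRC1 and of SCF ubiquitin ligases, and the least abundant Scml2 (1.12 ± 0.431 RPKM). Bmi1, a Pcgf subunit of canonical PRC1, stood at 32.6 ± 5.01 RPKM, above Rnf2 and below Yaf2 on the same scale. The median ratio of highest to lowest library was 1.45 for these genes.

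Of the 6 genes of enzymes that remove ubiquitin from H2A and their cofactors, 0 passed the edgeR goodness of fit, and 0 had an unadjusted p under 0.05 or were dispersion outliers in DESeq2. Over all genes tested these shares were 4.34%, 8.38% and 0.547%, so 0 in a list this short does not set it apart. Bap1, the catalytic subunit of the Polycomb deubiquitinase, was the most abundant at 31.1 ± 1.46 RPKM, and its cofactor gene Asxl3 the least, at 0.756 ± 0.281 RPKM, and Asxl3 had the widest spread (2.32-fold, highest in T10). The HP1 genes Cbx1, Cbx3 and Cbx5, chromodomain paralogs that read methylation at another lysine of H3, also had 0 calls by the same 3 measures. These are again too few genes to differ from the shares over all genes. Cbx5 stood at 43.4 ± 5.99 RPKM, close to Cbx6, and Cbx3, at 5.04 ± 1.55 RPKM, had the widest spread (1.98-fold, highest in T8).

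Of the 11 PRC2 genes, which write the mark that Cbx proteins read, 0 passed the edgeR goodness of fit after adjustment, against 4.34% of all genes tested. Dispersion outliers in DESeq2 numbered 0, against 0.547%. The 1 gene with an unadjusted p under 0.05 in the edgeR fit was Ezh1 (adjusted p = 0.417), against 8.38% of genes. These counts do not set the list apart from all genes. A spread over 2-fold was found in 4 of the 11, against 29.1%. Phf1, a Polycomb-like accessory subunit, had the widest spread of the list, 3.68-fold, at 26.5 CPM (T14), 18.4 (T10), 7.21 (T8) and 8.80 (TUN). Its 2 high libraries were those of Cbx7 and Cbx6, but its spread was not called (edgeR goodness of fit, adjusted p = 0.946). The list as a whole did not share this order. T14 and T10 were highest for 4 of the 11 genes, against 33.0% of all genes tested, and T8 and TUN for 6, against 32.5%. The most abundant PRC2 gene was Rbbp7 at 51.3 ± 9.39 RPKM and the least abundant Ezh1 at 4.65 ± 2.81 RPKM.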

How the data were processed

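Raw read counts per gene for 4 tumour libraries were used as deposited. Per the submitters' processing notes, the authors obtained these counts from mm10 using STAR with featureCounts, and the table is named for GENCODE vM8. The sources used here give no version, strand setting or handling of multiple matches. The gene length column, in bases, is the merged exon length in the deposited table. Symbols matched 46451 of 46946 identifiers.

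Counts were scaled with TMM in edgeR 4.0.16 (R 4.3.3; factors 0.971 to 1.03) to CPM, and with gene length to RPKM. Variability was tested with an intercept-only model at the trended dispersion, its deviance compared with a chi-square distribution (3 degrees of freedom) and Benjamini-Hochberg adjusted over 14266 genes left by the default low-count filter. The step was also run on simulated counts in which some genes were changed in a single library each. That setting does not cover a split such as T14 and T10 against T8 and TUN, and its outcome is not given here. Ratios used log2(RPKM + 0.1) and exact sign-flip tests. Alternatives were DESeq2 1.42.0 size factors and dispersion outliers, no filter, CPM, pseudocount 1, library totals, leaving out each library, and, chosen after seeing the data, transcript lengths. A total of 0 columns of sample values were left aside.

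The 8 members and all lists were chosen with earlier results of these data known. Named besides the members were, per list, the most and least abundant gene, the widest spread and any called gene, then neighbouring and overlapping genes, the 3 genes most like a member with over 2-fold spread, and Pdgfb. Bmi1 was added after its values were seen. Some items are not reported here. Marker lists are given as sums and counts, with single genes for neurons only.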

Additional observations from a re-analysis of the deposited data

Results flagged for a closer look

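Rybp in TUN, at 12.3 CPM, lay apart from the other libraries (14.5 CPM in T14, 14.4 in T10 and 14.5 in T8), with a gap of 0.961 of the whole range above Dixon's 95% critical value for 4 samples. The 95% counting interval of the TUN value, 10.9 to 13.8 CPM, overlapped those of the other 3 libraries. In all, 22 quantities were screened this way and 1 was past its critical value, and chance flags about 1 in 20 groups.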

How the results depend on the processing

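Of the 8 members, 1 was called in edgeR (Cbx7), also with DESeq2 size factors (adjusted p = 0.0378), and 0 without the low-count filter, as dispersion outliers in DESeq2, or when any library was left out (0 to 0). Those settings use fewer libraries, more genes or another measure, and the cause of the lost calls was not tested. Over all genes edgeR called 619 and DESeq2 78. Among the other PRC1 genes 1 was called, 0 as a dispersion outlier and 0 to 1 when a library was left out. The log2 ratio of Cbx7 to Cbx8 turned to 0.23 in CPM and 0.31 with transcript lengths. That of Cbx7 to Cbx2 was -0.53 without T14 and -0.29 without T10, and 0.56 at the highest when a library was left out, and it was 0.63 in CPM and 0.79 with transcript lengths against 0.04. The means of the other 6 ratios kept their sign in every alternative run. The mean share of Cbx6 was 82.8% in CPM and 74.7% with transcript lengths, against 78.3%. With transcript lengths Cbx7 took 11.0% against 6.63%, and in CPM Cbx8 took 5.47% against 8.82%. Ring1 took 19.7% in CPM and 27.8% with transcript lengths against 23.8%, and Yaf2 86.9% in CPM against 94.4%. These shifts follow from the lengths used. Without T14 the mean of Cbx7 fell from 22.3 to 14.7 CPM. The mean CPM of each member stayed within its SD of the main value under every scaling. With 4 libraries, leaving 1 out cannot move a mean by as much as its SD, so that measure cannot judge the runs without a library. No paired analysis was possible because all tumours form 1 group. Depth limits the low values: the 167 counts of Cbx7 in T8 give an interval of 5.98 to 8.14 CPM.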
